A study of Mus musculus with 3 samples.

Results

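Genes for protein folding in the endoplasmic reticulum (ER) and for the unfolded protein response were followed across 3 arrays of mouse bone marrow mesenchymal progenitors. The group holds 38 genes, out of 17097 genes that the array's annotation ties to a probe set of their own. They were listed by name from knowledge of the pathway, with earlier results of these data known, so the list is not blind to the data. All 38 have at least 1 probe set annotated to a single member, and each gene was read from the one of its probe sets whose mean over the arrays was highest. Of these, 36 passed a minimum of 4 for the mean log2 intensity over the 3 arrays (an intensity of 16), which 5813 genes of the array passed. Each of the 36 read above 16 on every array. The 2 that did not pass were Pdia3, a glycoprotein disulfide isomerase, at an intensity of 4.64, 4.71 and 4.29 on the control, shHIF-1a and shHIF-2a arrays, and Derl3, a derlin of secretory cells, at 1.66 on each, under the highest nonspecific control probe set of any array (3.47). Pdia3 and Derl3 were each read by only 1 probe set, so little RNA cannot be told from a dim probe set.

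The cells, PaS+ in the labels, came from the bone marrow of 8-week-old C56Bl/6 mice (strain spelled as labelled), were sorted by FACS and were grown for 7 days in 1% oxygen. All were transduced overnight with lentivirus and collected 4 days later, so the control cells also carried a vector and also lived in low oxygen. The control array held cells given shCTR, the second cells given shHIF-1a and the third cells given shHIF-2a, with 1 array each. Nothing in the labels says how many animals were pooled, what sequence a hairpin had or which fraction of cells was transduced. With 1 array per shRNA there is no replicate, no difference could be tested and no p-value is given.

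Secretory proteins enter the ER through the Sec61 channel, receive glycans and disulfide bonds, and are folded by the chaperone BiP and its partners. When unfolded proteins build up, the sensors IRE1α, PERK and ATF6 raise chaperone and degradation genes and slow translation. Stromal cells, which export much collagen, carry a heavy folding load, and low oxygen is known to disturb disulfide bonding.

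Checks of the arrays bear on all values below. Hif1a read 352.1 on the control array and 332.4 on both others, so its probe set did not separate the hairpins, and Epas1 (HIF-2α) read 5.09, 9.44 and 3.21. The arrays are therefore called shHIF-1a and shHIF-2a, as their vectors are labelled, and every direction rests on those labels. The 18 probe sets for spiked hybridisation controls were dimmer on the shHIF-2a array, with a median log2 difference from control of −0.84 against 0.08 on the shHIF-1a array. Between the hairpin arrays (shHIF-2a minus shHIF-1a) their median was −0.83 and their range −1.59 to 0, so none was higher on the shHIF-2a array. The log2 difference between 3′ and 5′ probe sets of the Actb control was 0.47, 0.61 and 0.60 on the control, shHIF-1a and shHIF-2a arrays. Interferon-response genes, a state fixed for comparison, summed to 27.2, 447.2 and 863.0 over the 8 of 10 listed genes on the array, with 3, 7 and 7 of them above the nonspecific level. The part of these in the differences reported here was not tested.

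The labelled cell type was checked against its markers. All 11 mesenchymal markers on the array were above the nonspecific level on every array. Only 8 of them passed the minimum of 4 for the mean log2 intensity. Lepr was close to the nonspecific level (3.47) at 4.47, 3.86 and 5.34. The sums were 1506, 1537 and 1345, with Cd44 brightest at 500.5, 538.9 and 576.5. These sums hide changes of single genes in both directions. On the shHIF-2a array Cxcl12 differed from control by −1.79 on the log2 scale and Alcam by 0.60. Pdgfra, one of the sorted surface proteins, read 38.2, 51.6 and 47.9. Ly6a, which encodes the other (Sca-1), was not analysed here. Plasma and B cells, which hold a very large ER, had 0 of 6 markers above the nonspecific level on any array. Their sums were 8.60, 6.89 and 6.82. Of 9 haematopoietic markers, Cd14 read 93.4, 87.8 and 93.2 and Cd68 reached 7.24 on the shHIF-2a array, while Ptprc and Itgam read 1.05 and 0.86 on each array. Endothelial markers above the level were 1 of 6 (Egfl7), and osteoblast markers 0 of 4.

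Several ER chaperones and disulfide isomerases, led by Sdf2l1, Creld2 and Pdia5, read lower on the shHIF-2a than on the shHIF-1a array. Values from bulk RNA cannot tell fewer cells of a type from less RNA per cell. No member differed 2-fold in any comparison, where 1.29% (shHIF-1a against control), 3.63% (shHIF-2a against control) and 1.36% (shHIF-2a against shHIF-1a) of all genes past the minimum did. A looser rule of 0.25 on the log2 scale (1.19-fold) was also used, because chaperone genes are abundant and often differ little. By that rule 11 of 36 members (30.6%) were lower and 1 (2.78%) higher on the shHIF-2a array than on the shHIF-1a array, against 9.15% and 13.2% of all genes past the minimum. Below 0 lay 25 members, above 0 lay 4, and 7 were equal, against 28.4%, 44.3% and 27.2% of all genes. The median log2 difference was −0.14 for the members and 0.00 for all genes. After cyclic loess scaling again 11 of 36 members were lower by at least 0.25, against 9.82% of all genes, and with a minimum of 64 on at least 1 array, which 29 members passed, 8 were, against 11.0%.

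**Figure D1:**
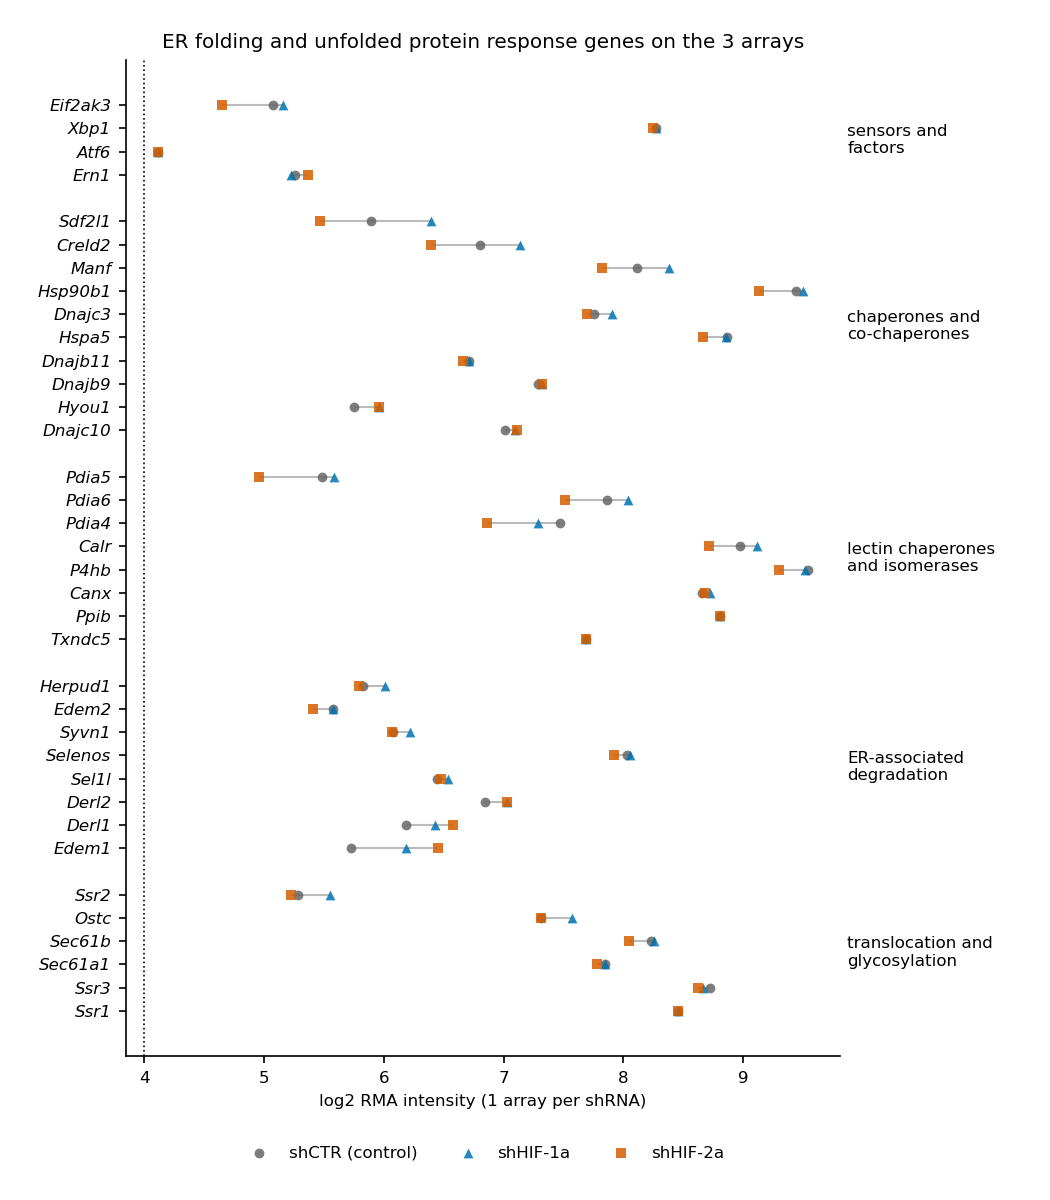
log2 RMA intensity (horizontal axis) of the 36 members past the minimum on the control (circles), shHIF-1a (triangles) and shHIF-2a (squares) arrays, 1 array each, ordered by role; the dotted line marks the minimum of 4. Squares lie to the left of triangles for most chaperones and isomerases, as for Sdf2l1, while those of Edem1 and Derl1 lie to the right.

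Against control, 9 members (25.0%) were lower and 2 (5.56%) higher by at least 0.25 on the shHIF-2a array, where 7.67% and 29.1% of all genes were. The members' median was −0.05, with 22 below 0, 9 above and 5 equal, and that of all genes was 0.07, with 23.3% below 0 and 60.4% above. On the shHIF-1a array 6 members (16.7%) were higher than control by at least 0.25 and 0 lower, against 21.7% and 1.84% of all genes, so the members' share of higher values was not above the background. Their median there was 0.08, with 23 above 0, 5 below and 8 equal, and that of all genes was 0.05, with 59.9% above and 18.8% below. Centring each array on the median of the genes past the minimum turned the members' median to −0.04 and gave 2 higher and 1 lower. It moved the median of all genes by more than 0.1, from 0.05 to −0.06 on the shHIF-1a array and from 0.07 to −0.06 on the shHIF-2a array. Since the comparisons share arrays in pairs, their values for a gene are set side by side and are not independent.

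The spread between probe sets of the same gene gives a rough view of technical error, but cannot show an error shared by a whole array. Over 1619 genes with at least 2 probe sets past the minimum its pooled SD was 0.19 on the log2 scale for shHIF-1a against control, 0.27 for shHIF-2a against control and 0.16 between the hairpin arrays. It says nothing of the spread between cultures. For 7 of the 36 members the probe set used is of a kind (IDs ending in _s_at or _x_at) that can also read related transcripts. RMA also gave exactly equal values on some arrays, as on at least 2 of the 3 for 12 members and on all 3 for 4 members (Atf6, Ssr1, Ppib and Txndc5), so that a small difference could go unseen.

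**Figure D2:**
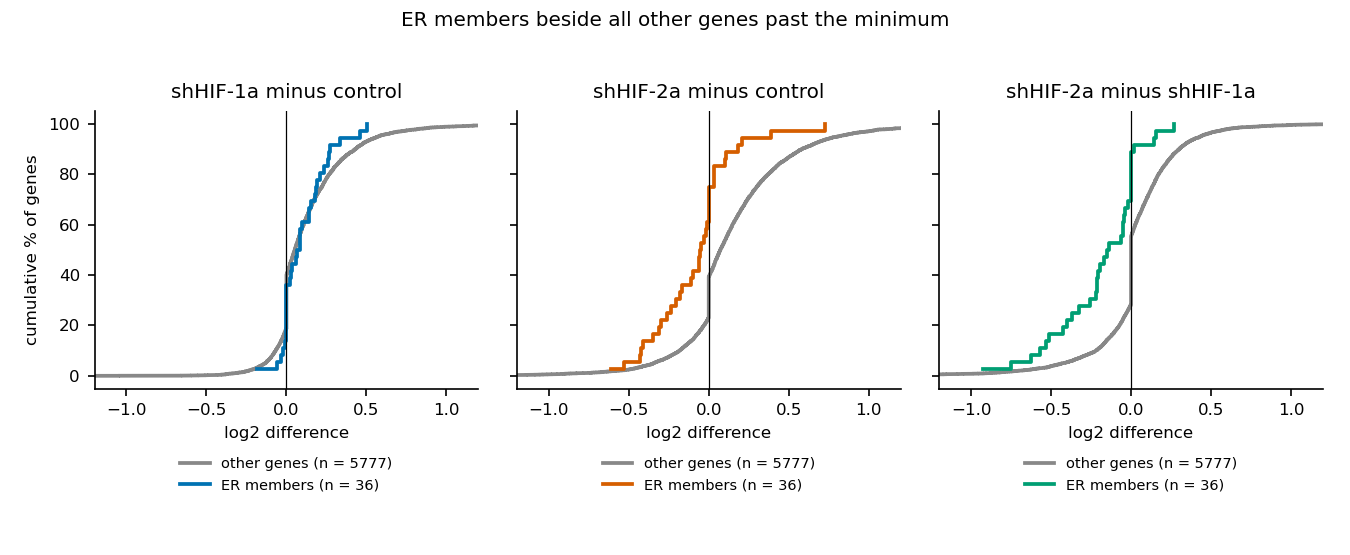
Cumulative percentage of genes (vertical axis) by log2 difference (horizontal axis) for the 36 members (coloured) and the other 5777 genes past the minimum (grey), 1 panel per comparison; differences beyond the axis lie outside the panels. The member curve lies left of the grey curve in both comparisons with the shHIF-2a array and near it for shHIF-1a minus control.

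Chaperone genes are described first, with RMA intensities on the linear scale, in the order control, shHIF-1a and shHIF-2a, and with differences on the log2 scale. Sdf2l1, a partner of the J-protein Dnajb11 that keeps clients soluble, read 59.3 on the control, 83.9 on the shHIF-1a and 44.3 on the shHIF-2a array. It was thus highest with the first hairpin and lowest with the second, at 52.7% of the shHIF-1a value, the most negative difference of any member between the hairpin arrays (−0.92). Creld2, a stress-induced ER protein with disulfide isomerase activity, had the same order at 111.8, 141.1 and 84.0, a difference of −0.75 between the hairpin arrays. Manf, a secreted and ER-resident factor that binds BiP, read 277, 334 and 226. Its shHIF-2a value was 67.5% of the shHIF-1a one and 81.5% of control. These 3 genes were also higher than control on the shHIF-1a array, by 0.50, 0.34 and 0.27. With 32 added before log2 that difference of Manf was under 0.25, and after centring those of Creld2 (0.22) and Manf (0.16) were.

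The major chaperones differed less. Hsp90b1, the HSP90 of the ER, read 693.6, 723.6 and 560.0, so the shHIF-2a array was lowest, with differences of −0.37 from the shHIF-1a array and −0.31 from control (−0.24 after cyclic loess scaling). Its second probe set gave differences of −0.40 and −0.34. Hspa5, which encodes BiP, the central HSP70 and a sensor of folding load, read 467.6, 465.0 and 406.1. Control and shHIF-1a values were close, and the shHIF-2a value was 87.3% of the shHIF-1a one, a difference of −0.20 that does not reach 0.25. A second Hspa5 probe set gave −0.42.

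Co-chaperones of BiP were mixed. Dnajc3, a J-protein that also restrains PERK, read 215.9, 240.5 and 207.8, a difference of −0.21 between the hairpin arrays, and its 4 probe sets past the minimum ranged from −0.81 to −0.15. Dnajb11 read 104.8 on both the control and the shHIF-1a array and 101.3 on the shHIF-2a array. Dnajb9, an inhibitor of IRE1α, read 156.7, 160.3 and 160.3. Hyou1, the nucleotide exchange factor of BiP, read 53.8, 62.1 and 62.1, and Dnajc10, a disulfide reductase that prepares clients for degradation, read 128.9, 136.9 and 138.4. None of these reached 0.25 in any comparison on the probe set used. In all, 7 of the 10 chaperone genes were below 0 between the hairpin arrays, 4 of them by at least 0.25, with a median of −0.20. Of all genes past the minimum, 28.4% were below 0 and 9.15% by at least 0.25.

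Disulfide isomerases, which form and reshuffle disulfide bonds, come next. Pdia5 read 44.9, 48.1 and 31.1, so the shHIF-2a array was lowest, at 64.7% of the shHIF-1a value (−0.63). Pdia6, which also quenches stress sensors by acting on their disulfides, read 232.5, 263.2 and 182.3, a difference of −0.53 between the hairpin arrays and −0.35 against control. Averaging it with its second probe set, which read under 2 on every array, gave −0.02 against control. Pdia4, a large isomerase with several thioredoxin domains, read 177.1, 155.9 and 116.0, unlike Pdia5 and Pdia6 lower than control on both hairpin arrays, with differences of −0.18 and −0.61. Its shHIF-2a value was 65.5% of control, the most negative difference from control of any member.

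The lectin chaperones, which hold glycoproteins while they fold, did not differ alike. Calr, the soluble one, read 503.2, 553.8 and 419.5, lowest on the shHIF-2a array with a difference of −0.40 from shHIF-1a, and its second probe set gave −0.48. Against control its difference was −0.26, or −0.22 after cyclic loess. Canx, its membrane-bound relative, read 403.4, 423.1 and 411.9, a difference of −0.04 between the hairpin arrays. A second Canx probe set read 207.2, 239.0 and 254.9, with its shHIF-2a value higher by 0.30 than control and by 0.09 than shHIF-1a. P4hb, a disulfide isomerase that is also a subunit of collagen prolyl hydroxylase, read 743.7, 731.7 and 630.8, lowest on the shHIF-2a array with a difference of −0.21 from shHIF-1a. Ppib, the prolyl isomerase cyclophilin B, read 448.4 on all 3 arrays, and Txndc5, a thioredoxin-domain isomerase, read 206.9 on all 3. Of 8 measured genes in this role 6 were below 0 and 2 equal between the hairpin arrays, against 28.4% and 27.2% of all genes. In 4 the value was lower by at least 0.25, against 9.15% of all genes, and the median was −0.31.

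**Figure D3:**
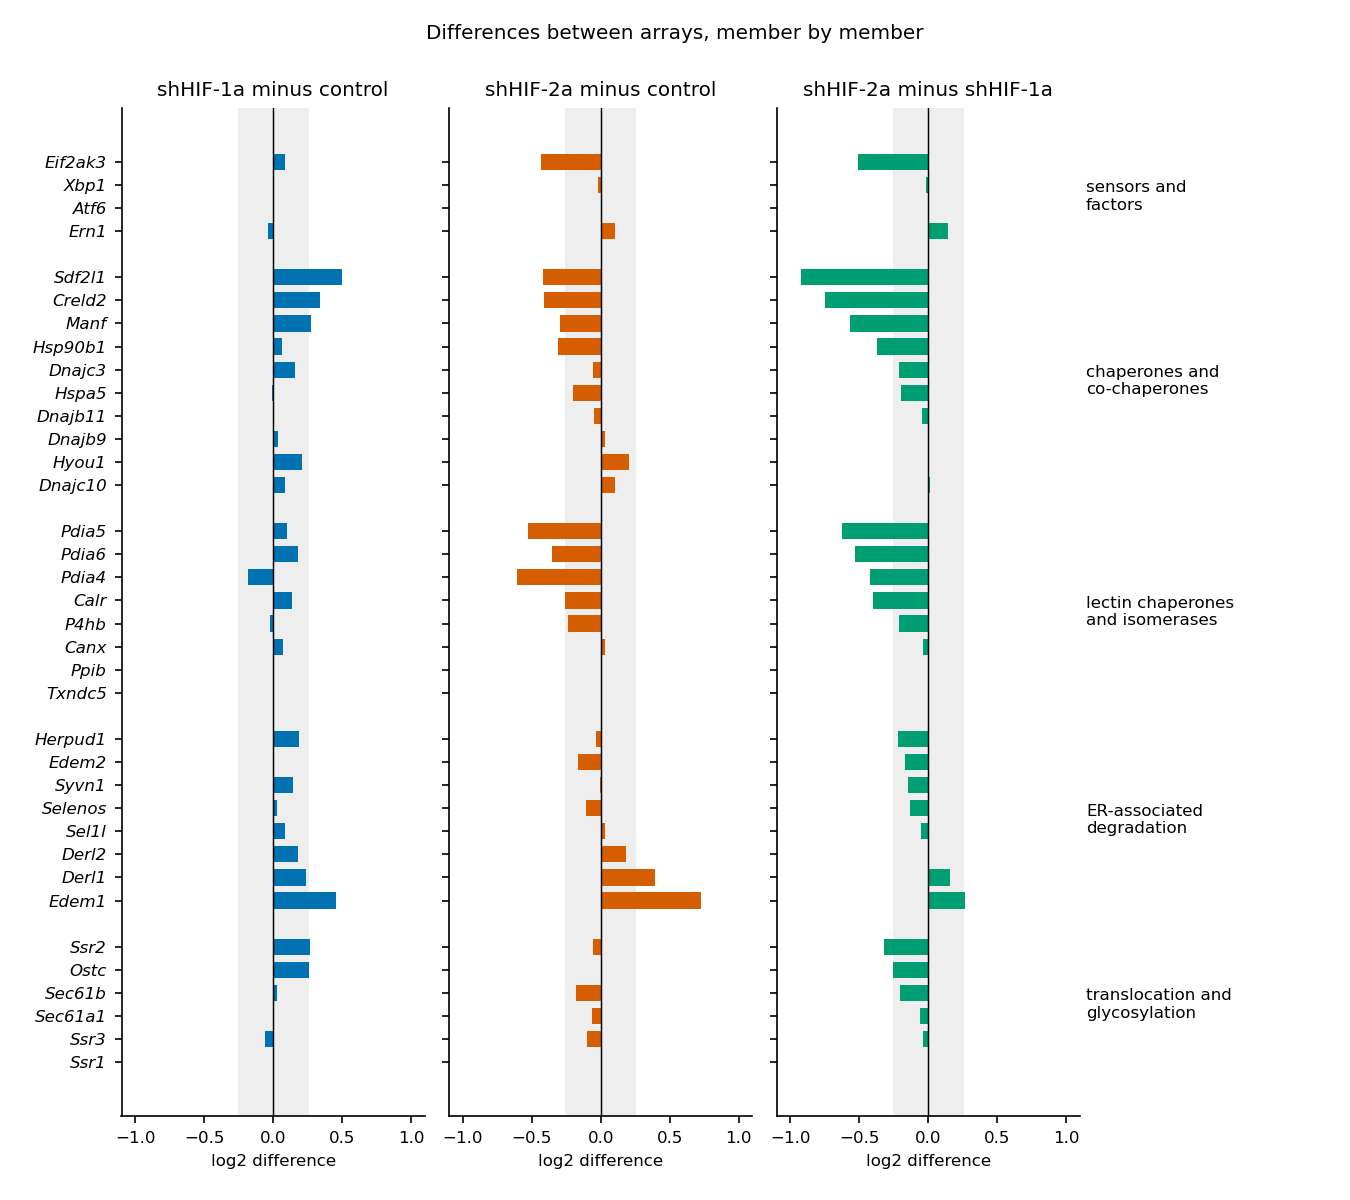
log2 differences (horizontal axis) of the 36 members past the minimum in each comparison, 1 bar per gene from 0; the grey band spans ±0.25 and no bar reaches 1 in size (2-fold). In the panel of shHIF-2a minus shHIF-1a the longest bars point left and belong to Sdf2l1 (−0.92), Creld2 (−0.75) and Pdia5 (−0.63).

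The sensors themselves gave little. Xbp1, whose mRNA is spliced by IRE1α into the main activator of ER expansion, read 308.9, 308.9 and 304.6, nearly equal on all arrays. Its other probe sets past the minimum gave −0.35 and −0.18 between the hairpin arrays, and no probe set here is known to separate spliced from unspliced mRNA. Eif2ak3, which encodes PERK, read 33.7, 35.7 and 25.0, lowest on the shHIF-2a array with differences of −0.51 from shHIF-1a and −0.43 from control. With 32 added before log2 the value against control was −0.20, and the mean of its probe sets, the others of which lay near background, gave −0.13 against shHIF-1a. Ern1, which encodes IRE1α, read 38.3, 37.4 and 41.2, and Atf6 read 17.4 on all arrays, close to the minimum.

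Genes of ER-associated degradation, which extract misfolded proteins for the proteasome, held the 2 members that were higher than control by at least 0.25 on the shHIF-2a array. They are 2 of the 8 measured genes in this role (25%), against 29.1% of all genes past the minimum, so the share was not above the background. Edem1, which trims mannose from misfolded glycoproteins, read 53.0, 72.9 and 87.6, highest on the shHIF-2a array by 0.72 against control, the highest difference of any member in the 3 comparisons. Its other probe set read 67.4, 67.9 and 58.0, a difference of −0.22, so the 2 probe sets disagree in direction. On the control array that other probe set was the brighter one. The choice of probe set by the highest mean thus rests on the hairpin arrays, where the one used was higher. Derl1, a component of the retrotranslocation machinery, read 72.9, 86.0 and 95.6, higher than control by 0.39 on the shHIF-2a array. Its other probe sets past the minimum gave 0.05 and 0.00. Derl2, a related derlin, read 115.3, 130.9 and 130.9.

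The remaining degradation genes stayed within 0.25 on the probe sets used. Herpud1, a stress-induced organiser of the ligase complex, read 56.6, 64.5 and 55.4, and Edem2, a mannosidase that acts early, 47.8, 47.8 and 42.5. Sel1l, the scaffold of the ligase Syvn1, read 87.3, 92.7 and 89.3, and another of its probe sets read 31.9, 45.1 and 51.3, a difference of 0.69 from control on the shHIF-2a array. Syvn1 itself read 67.4, 74.3 and 67.0, and Selenos, a selenoprotein that recruits the extraction ATPase, 261.6, 266.5 and 242.6. Another Selenos probe set read 49.1, 72.9 and 59.6, above control by 0.57 and 0.28 and with a difference of −0.29 between the hairpin arrays. Between the hairpin arrays 5 of the 8 measured genes in this role were below 0, 2 above and 1 equal, with a median of −0.09. Of all genes, 28.4% were below 0 and 44.3% above. By 0.25 or more, 0 of the 8 were lower (1, Selenos, without the probe sets whose IDs end in _s_at or _x_at), against 9.15% of all genes.

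Translocation and glycosylation genes had 2 of 6 lower by at least 0.25 between the hairpin arrays, Ssr2 and Ostc, against 9.15% of all genes. Sec61a1, the pore of the translocation channel, read 230.2, 230.2 and 220.3, and Sec61b, its small subunit, 300.4, 305.5 and 265.2. Among subunits of the translocon-associated complex, Ssr1 read 351.7 on all 3 arrays, Ssr3 422.1, 405.0 and 393.5, and Ssr2 39.0, 46.9 and 37.4. Another Ssr1 probe set past the minimum read 86.9, 97.4 and 120.0. Its shHIF-2a value was higher by 0.47 than control and by 0.30 than shHIF-1a. Ostc, a subunit of the oligosaccharyltransferase that adds glycans, read 159.2, 190.4 and 159.2. Ssr2 and Ostc were thus highest on the shHIF-1a array, above control by 0.27 and 0.26, and both were under 0.25 with 32 added, after cyclic loess and after centring. Between the hairpin arrays their differences were −0.32 and −0.26, and with 32 added neither reached 0.25. Of the 6 genes 5 were below 0 and 1 equal in that comparison, against 28.4% and 27.2% of all genes, with a median of −0.13.

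Agreement between probe sets could be read for 17 members with at least 2 of them past the minimum. For 10 of the 17 every probe set was below 0 between the hairpin arrays, for 0 every one was above, and 4 held both signs. The widest gap in that comparison was 0.66, for Dnajc3. Against control on the shHIF-2a array 7 had every probe set below 0 and 1 every one above, and the widest gap was 0.94, for Edem1. On the shHIF-1a array against control 7 had every probe set above 0 and 0 every one below, and the widest gap was 0.54, for Selenos. Such agreement was not counted over all genes, so these counts have no background share. By the probe set used, 28.4% of all genes past the minimum were below 0 between the hairpin arrays. Against control 23.3% were below 0 on the shHIF-2a array, and 59.9% above 0 on the shHIF-1a array.

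**Figure D4:**
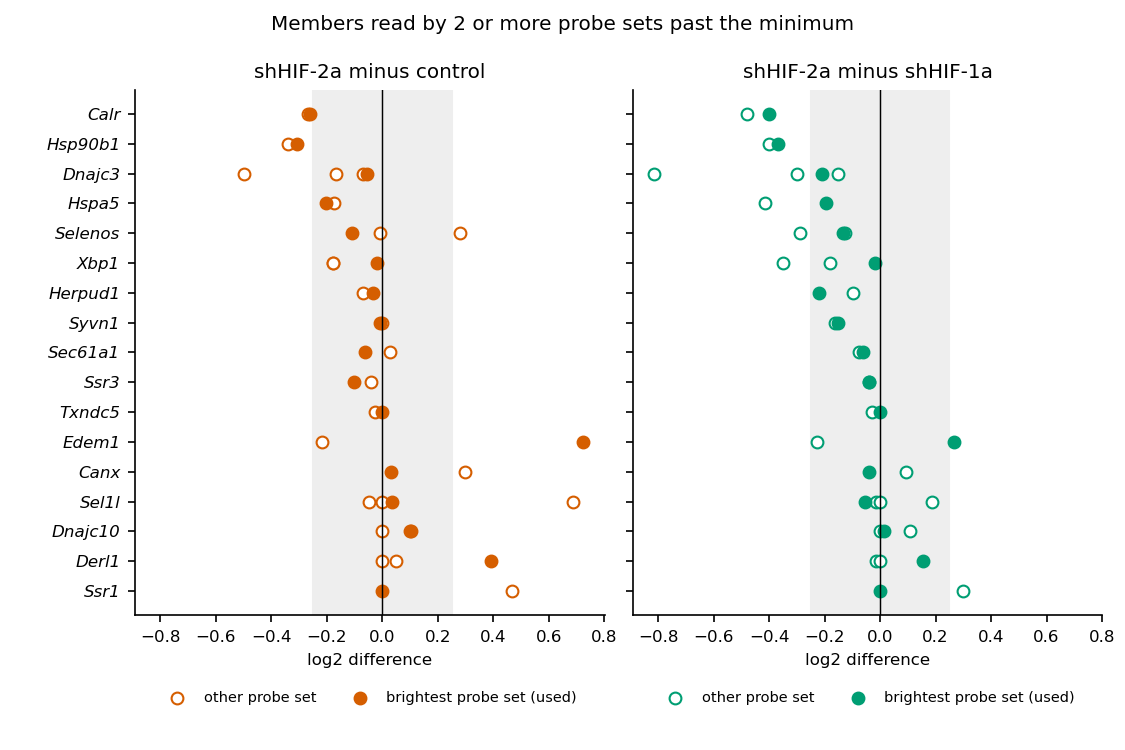
log2 difference (horizontal axis) of each probe set past the minimum for the 17 members with 2 or more, filled for the one used and open for the others, with a grey band at ±0.25. Both probe sets of Calr and of Hsp90b1 lie below −0.25 in both panels, whereas those of Edem1 lie on opposite sides of 0.

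Promoters of the members were read because many chaperone genes are known to carry the ER stress element, to which ATF6 and NF-Y bind. RefSeq's table (GRCm38.p6) held promoters for 31 of the 38 members, matched by gene identifier, each from 250 bases before to 50 bases after a start site. The 7 without an entry were Manf, Hyou1, Derl1, Atf6, Sec61a1, Ssr2 and Ostc. The motif CCAAT, then any 9 bases, then CCACG, was searched on both strands. It was present in 9 of the 31 members (29.0%), against 37 of 27025 genes in the table (0.137%), or 39 of its 32851 promoters (0.119%), and the members were listed from knowledge of this pathway. Its part CCACG alone, which overlaps it, was in 83.9% of the members and 35.5% of all genes. The 9 were Hspa5, Hsp90b1, Calr, Canx, Creld2, Dnajc3, Pdia6, Syvn1 and Derl3.

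Shown here are the elements of 5 genes with large differences or central roles, each with up to 30 bases on either side and in the gene's own direction. Capitals mark the fixed letters of the motif, which reads as its reverse complement (CGTGG first) where it lies on the other strand. They lie at chr2:34771995-34772073 (plus strand) for Hspa5, chr15:88819490-88819568 (plus) for Creld2, chr12:17266461-17266539 (plus) for Pdia6, chr8:84847045-84847123 (minus) for Calr, and chr10:86705503-86705581 and chr10:86705608-86705686 (minus) for the 2 elements of Hsp90b1.
Hspa5: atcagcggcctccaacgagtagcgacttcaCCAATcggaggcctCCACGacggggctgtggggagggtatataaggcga
Creld2: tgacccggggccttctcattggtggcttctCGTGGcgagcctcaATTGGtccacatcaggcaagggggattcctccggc
Pdia6: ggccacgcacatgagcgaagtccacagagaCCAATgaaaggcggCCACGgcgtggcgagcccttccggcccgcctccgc
Calr: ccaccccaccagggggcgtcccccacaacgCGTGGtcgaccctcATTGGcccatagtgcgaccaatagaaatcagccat
Hsp90b1, nearer the start site: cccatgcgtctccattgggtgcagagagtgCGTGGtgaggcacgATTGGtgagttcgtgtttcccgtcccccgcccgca
Hsp90b1, farther: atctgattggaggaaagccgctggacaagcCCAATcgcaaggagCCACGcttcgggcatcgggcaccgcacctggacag

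Between the last base of the element and the start site lie 46 bases in Hspa5, 107 in Creld2, 79 in Pdia6, 143 in Calr and 88 for the nearer element of Hsp90b1. Of the 9 genes 8 passed the minimum, and all 8 were below 0 between the hairpin arrays, 4 of them by at least 0.25, with a median of −0.29. Of all genes past the minimum, 28.4% were below 0 and 9.15% by at least 0.25. The 21 measured members with a promoter in the table and no match had 13 below 0, 3 above and 5 equal, 4 lower by at least 0.25, and a median of −0.05. Against control on the shHIF-2a array the medians were −0.23 with a match and −0.03 without, and on the shHIF-1a array 0.14 and 0.02. Sdf2l1, Pdia5 and Pdia4 are among the members with no match in this window. A match is a description of letters and no evidence of binding, and the difference between these sets was not tested.

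Other genes of the pathway were taken from a list of 71, of which 63 were on the array and 57 passed the minimum. Between the hairpin arrays 3 (5.26%) were lower and 5 (8.77%) higher by at least 0.25, against 9.15% and 13.2% of all genes past the minimum. The median was 0.00, and none reached 2-fold in any comparison. Against control 6 (10.5%) were lower and 10 (17.5%) higher on the shHIF-2a array, where 7.67% and 29.1% of all genes were. On the shHIF-1a array 3 (5.26%) were lower and 10 (17.5%) higher, against 1.84% and 21.7% of all genes. Both comparisons had a median of 0.00 for the listed genes. The balance of lower and higher genes against control flipped with the scaling. On the shHIF-2a array against control it was 9 lower and 6 higher after cyclic loess scaling, and 12 lower and 5 higher with the arrays centred on their median. On the shHIF-1a array against control it was 6 lower and 6 higher after cyclic loess, and 7 lower and 3 higher after centring. Between the hairpin arrays both gave 5 lower and 5 higher.

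Genes listed as PERK arm and stress factors, called the PERK arm here for short, mostly read higher on the shHIF-2a than on the shHIF-1a array. Of 7 measured 6 (85.7%) were above 0 between the hairpin arrays, against 44.3% of all genes past the minimum. Their median was 0.23 (0.11 with 32 added before log2). By at least 0.25, 3 of the 7 (42.9%) were higher, against 13.2% of all genes. Atf4, which encodes the factor ATF4, and Ppp1r15a differed by only 0.12 and 0.14 between the hairpin arrays. Chac1, a glutathione-degrading enzyme, read 42.5, 48.8 and 70.7, highest on the shHIF-2a array by 0.73 against control. Trib3, a pseudokinase that inhibits ATF4, read 26.8, 22.8 and 32.3, and Ddit3, the stress factor CHOP, 50.5, 50.5 and 66.5, differences of 0.50 and 0.40 between the hairpin arrays. Sesn2, a stress-induced inhibitor of growth signalling, was lowest on the shHIF-1a array at 22.4 against 30.3 on control. Nupr1, a stress-induced chromatin protein, was the exception below 0, at 324.8, 251.6 and 223.9.

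Among the other listed genes, Creb3l2, a membrane-bound relative of ATF6 that drives secretory genes, read 51.1, 66.9 and 40.6, a difference of −0.72 between the hairpin arrays. Fkbp7, an ER prolyl isomerase, read 111.8, 123.9 and 91.3, and Serpinh1, the collagen chaperone, 523.3, 522.9 and 416.4, differences of −0.44 and −0.33. Kdelr3, a receptor that returns chaperones to the ER, read 102.3, 89.1 and 76.3. All 3 receptors of its family were below 0 on the shHIF-2a array against control and against shHIF-1a, where 23.3% and 28.4% of all genes were. Kdelr1 was close to equal, at −0.01 and −0.05. By at least 0.25, 2 of the 3 were lower against control and 0 between the hairpin arrays, against 7.67% and 9.15% of all genes. Mbtps2, a protease that releases ATF6, read 46.5, 68.0 and 75.7, above control by 0.55 and 0.70. Dnajc1, a J-protein of the ER membrane, was above control by 0.61 on the shHIF-1a array at 51.3 against 33.7, and Nploc4, an extraction cofactor, by 0.56 on the shHIF-2a array at 36.1 against 24.4. Spcs3, a signal peptidase subunit, read 173.7, 140.8 and 154.1, a difference of −0.30 from control on the shHIF-1a array.

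**Figure D5:**
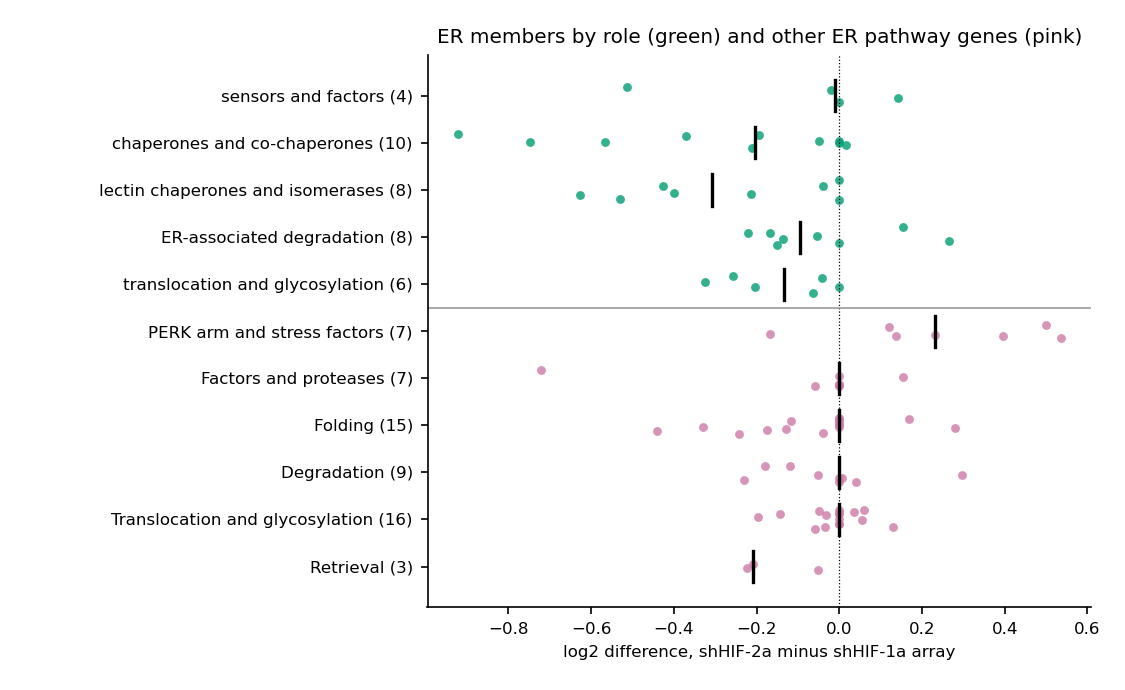
log2 difference of shHIF-2a minus shHIF-1a (horizontal axis) for the members by role (green) and the other ER pathway genes by group (pink), 1 point per gene past the minimum, with the number of genes in brackets and the median as a black bar. Medians were −0.31 for lectin chaperones and isomerases, −0.20 for chaperones and 0.23 for the PERK arm.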

How the data were processed

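The authors deposited 1 table of RMA intensities for 3 single-colour Affymetrix arrays hybridised with biotin-labelled cRNA (1 µg of total RNA each, per the labels' protocols). The submitters' processing notes name RMA; for its settings, not given in the sources used here, nothing is assumed. The values are linear, and log2 was taken with no further scaling. Each array was grouped by its title. Of 45141 probe sets, 28898 list 1 gene (28689 matched by Entrez identifier to RefSeq names of GRCm38.p6), 551 several and 15588 none; those and 104 controls were left out. A gene is its probe set with the highest mean log2 value, and genes needed a mean of at least 4. Members and lists were chosen with earlier results of these data known, and named genes were all members past the minimum and the 3 highest and 3 lowest other pathway genes per comparison. Atf4, Ppp1r15a and Kdelr1 were named in addition. Values count as equal within 1e-09 on the log2 scale. Differences were counted by size, since the number of arrays limits the precision and allows no test. Alternatives were other minimums, offset, scaling (cyclic loess, limma 3.58.1, or centring) and choice of probe sets. The steps recovered changes planted in simulated arrays. That run checked the code only. It gives no measure of the error on the real arrays and does not bear on the small differences reported. Protein sequences were not used here. Python 3.11.15 and pandas 2.3.3 were used.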

Additional observations from a re-analysis of the deposited data

How the results depend on the processing

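No paired analysis was possible because each shRNA has 1 array. No member was 2-fold apart under any of the 8 alternatives run for that count. The median between the hairpin arrays lay between −0.20 and −0.10 over all alternatives, and that of shHIF-2a against control between −0.19 and −0.03. By role, medians between the hairpin arrays lay between −0.38 (mean of all probe sets) and −0.18 for chaperones, −0.33 and −0.21 for lectin chaperones and isomerases, −0.11 and −0.05 for degradation, −0.15 and −0.06 (minimum of 64) for translocation, and 0.11 and 0.31 for the PERK arm. For shHIF-1a against control the members' median lay between −0.04 (centring) and 0.11. The alternatives for counts at 0.25 and the choice of probe set by mean intensity were added after seeing the data. Members higher on the shHIF-1a array than control numbered 2 after centring and 3 with 32 added, against 6, and those lower 1 after centring, against 0. The 1 member higher on the shHIF-2a than the shHIF-1a array (Edem1) became 0 after centring, after cyclic loess, with the mean of all probe sets and with 32 added. Members higher on the shHIF-2a array than control numbered 4, against 2, without the probe sets shared between transcripts (IDs ending in _s_at or _x_at). Of the 12 members past 0.25 between the hairpin arrays 8 stayed past it under every alternative of offset, scaling and probe set. For 1 of 6 (Sdf2l1) this held on the shHIF-1a array against control, and for 6 of 11 on the shHIF-2a array against control. Those 6 were Pdia4, Pdia5, Sdf2l1, Creld2, Manf and Edem1. All but Edem1 have only 1 probe set, so the alternatives of probe set could not change them. For Edem1 the lowest value was 0.25, and its other probe set alone gave −0.22. Of the 8 between the hairpin arrays, only Hsp90b1, Pdia6 and Calr have more than 1 probe set. Cyclic loess changed the split of all genes past 0.25 from 92.2% to 77.9% higher on the shHIF-1a and from 79.1% to 63.2% on the shHIF-2a array; for the members it gave 4 higher and 0 lower, and 2 higher and 8 lower. The cause of these changes was not tested.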
